A study of Mus musculus with 9 samples.

Results

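Genes of liver macrophages were followed across the livers of diabetic, high-fat-fed mice, of such mice given a lipase inhibitor, and of healthy controls. The set holds 36 genes, chosen by name as markers of Kupffer cells, of macrophages in general and of monocytes recruited from blood, out of 55401 genes in the deposited count table. All 36 were found in it under their symbols, and all 36 had enough counts to be tested. RNA came from the left liver lobe of 9 male mice, 3 in each of 3 groups, and was read by QuantSeq 3' mRNA sequencing, which counts the 3' ends of polyadenylated transcripts. Chow mice received neither streptozotocin nor Atglistatin and ate normal chow. STAM mice model fatty liver on a background of diabetes. Each had 200 µg of streptozotocin, a toxin of insulin-producing cells, under the skin when 2 days old, and from 4 weeks of age was kept on high-fat food for 4 weeks. STAM + Atglistatin mice had the same injection and food, into which Atglistatin was mixed, a blocker of the enzyme named adipose triglyceride lipase (ATGL). Streptozotocin and the diet were given together, so their effects cannot be told apart. The labels give no strain.

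Kupffer cells are the resident macrophages of the liver. They sit in the sinusoids, take up particles and dying cells from the blood through scavenger and complement receptors, and in mice are marked by the lectin Clec4f. When Kupffer cells are lost, or when lipid accumulates, monocytes that carry Ccr2 enter from the blood, and in fatty liver some of the macrophages they give rise to switch on Trem2, Gpnmb, Spp1, Cd9 and Lgals3, a state known as the lipid-associated macrophage. Whole lobe RNA mixes these cells with hepatocytes, so fewer cells of a type and less RNA per cell cannot be told apart.

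Totals were 7.41 to 9.91 in units of 1e6 counts per library, and the members held 6648 to 11848 counts of each. Summed over the 9 libraries, a member had from 72 counts (Itgam) to 11650 (Cd5l). Clec4f had 437 counts or more in every library, so the defining Kupffer cell marker was present throughout. The mitochondrially encoded share of counts ran 7.98 ± 0.738% for chow, 11.2 ± 0.303% for STAM and 9.04 ± 0.600% for STAM + Atglistatin (SD, n = 3). Summed counts per 1e6 of 7 hepatocyte genes were 90815 to 102262 in chow, 48296 to 56065 in STAM and 70806 to 71501 in STAM + Atglistatin. The most abundant genes weigh most in this sum, and the 7 did not move alike. In STAM + Atglistatin against STAM their median log2 fold change was 0.03, with Alb at 0.63 and Apob at -0.79. The part of the mitochondrial or the hepatocyte shift in the results was not tested. Below, CPM is a gene's count per 1e6 counts of the library after TMM scaling, which sets most genes level between libraries.

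No member passed an adjusted p of 0.05 in any of the 3 comparisons. In STAM against chow 0 of 36 passed by edgeR's quasi-likelihood test, while 3.94% of all 12660 tested genes did. In STAM + Atglistatin against STAM 0 passed against 1.79% of all genes, and in STAM + Atglistatin against chow 0 passed against 4.08%. DESeq2 and limma-voom also called 0 members in each, and the deposited table of the authors lists 0 members under an adjusted p of 0.05. The authors' deposited table gives an adjusted p for 35, 34 and 35 of the 36 members in the same order of comparisons, with none for Gpnmb in any and none for Itgam in the second, and 4.70%, 2.30% and 4.69% of all genes with one were under 0.05. At an unadjusted p under 0.05 there were 4, 1 and 2 members, where all tested genes gave 14.5%, 10.2% and 14.8%. One chow library, replicate 7, stood far above the other chow libraries in several of these genes, and without it 3 of 36 members, Trem2, Gpnmb and Lgals3, passed as higher in STAM than in chow, as 2.68% of 13078 genes did (5.54% passed in either direction). That library was singled out by its high values in these same genes. Calls of such genes without it, here and below, are therefore descriptions and give no independent support for a difference.

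The median log2 fold change of the 36 members was -0.02 in STAM against chow, with 17 above 0 and 19 below, and 49.9% of all tested genes were above 0. It was 0.15 in STAM + Atglistatin against STAM (22 above 0, against 49.9% of all genes) and 0.05 in STAM + Atglistatin against chow (19 above 0, against 49.4%). The direction of small differences depended on scaling: with plain library totals 23 members lay above 0 in STAM against chow and 23 in STAM + Atglistatin against chow, with all-gene medians moved to 0.09 and 0.08. The 95% interval of the fold change lay inside a 2-fold change either way for 23, 24 and 24 members in the 3 comparisons. The rest had intervals reaching past 2-fold, among them all 5 recruited monocyte genes, so differences of that size in these genes could not be detected or set aside at this depth.

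**Figure D1:**
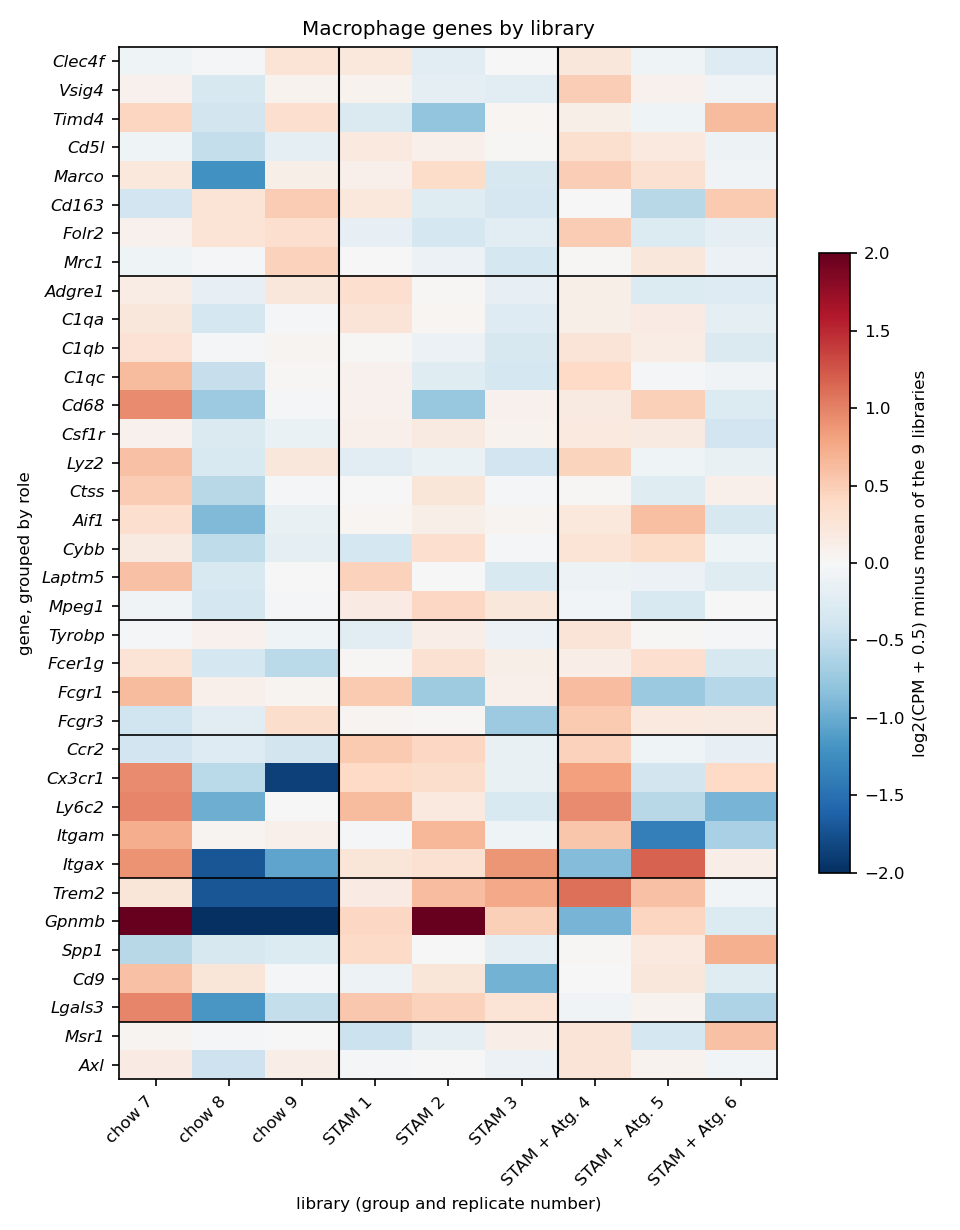
Each row is a gene and each column a library, with colour giving log2(CPM + 0.5) minus the gene's mean over the 9 libraries, red for above and blue for below. Most rows of recruited monocyte and lipid-associated genes, Spp1 and Ccr2 aside, are blue in chow replicates 8 and 9 and red in chow replicate 7, while the upper 8 rows of resident Kupffer cell genes differ little between groups.

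The 8 genes of resident Kupffer cells and scavenging summed to 303 ± 38.8 CPM for chow, 321 ± 26.8 for STAM and 345 ± 47.3 for STAM + Atglistatin (SD, n = 3). Clec4f, the Kupffer cell lectin, stood at 57.0, 58.8 and 73.6 CPM in chow replicates 7, 8 and 9, at 70.3, 51.6 and 60.4 in STAM replicates 1, 2 and 3, and at 71.1, 57.2 and 50.7 in STAM + Atglistatin replicates 4, 5 and 6. The 3 groups overlapped, and the interval of its log2 difference was -0.40 to 0.29 in STAM against chow and -0.37 to 0.32 in STAM + Atglistatin against STAM. Vsig4, a complement receptor that clears bacteria, had means of 38.3, 36.6 and 45 CPM in chow, STAM and STAM + Atglistatin.

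Cd5l, a secreted scavenger protein of tissue macrophages, had the smallest adjusted p of this role in both comparisons with chow. It was at 136, 103 and 125 CPM in chow, at 165, 153 and 146 in STAM and at 180, 165 and 134 in STAM + Atglistatin. All 3 STAM libraries lay above all chow libraries, which 10.6% of all tested genes did, and 1 STAM + Atglistatin library lay within the chow range. Its log2 fold change was 0.35 ± 0.14 (SE) in STAM against chow (edgeR adjusted p = 0.225, 0.0620 to 0.579 over 15 alternatives) and 0.40 ± 0.14 in STAM + Atglistatin against chow (edgeR adjusted p = 0.15, 0.0545 to 0.454).

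Timd4, a receptor for dying cells carried by long-lived resident macrophages, was at 8.34, 4.58 and 7.83 CPM in chow, 4.87, 3.31 and 6.25 in STAM and 6.62, 5.70 and 9.73 in STAM + Atglistatin, and each pair of groups overlapped. Folr2, the macrophage folate receptor, was the only member with every STAM library below every chow library (9.33 to 10.6 against 12.8 to 15.4 CPM, which 10.2% of all genes did), but 1 treated library reached 17.3. Marco, a scavenger receptor, was at 6.99 CPM in chow replicate 8 and at 18.5 and 19.7 in the other chow libraries, so a single library held its chow mean down. Cd163, the haemoglobin scavenger receptor, and the mannose receptor gene Mrc1, which sinusoidal endothelial cells also express, ranged over 5.49 to 12.1 and 24.4 to 43.0 CPM in the 9 libraries, with overlap between every pair of groups.

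General macrophage genes, 12 in number, summed to 542 ± 132 CPM for chow, 530 ± 41.6 for STAM and 544 ± 71.7 for STAM + Atglistatin. The chow spread came from 678 CPM in replicate 7 against 415 and 533 in replicates 8 and 9. Csf1r, the receptor for the growth factor that macrophages depend on, had means of 83.4 ± 11.3, 97.4 ± 3.88 and 90.9 ± 19.5 CPM. Adgre1, the surface marker used to sort mouse macrophages, had means of 20.4, 20.5 and 17.6 CPM.

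The 3 chains of complement C1q, which tag debris for uptake, are neighbours on chromosome 4 of GRCm38. C1qa lies at 136895917 to 136898803, C1qc at 136889804 to 136893065 and C1qb at 136880129 to 136886187, all on the minus strand. C1qa was at 73.0, 48.7 and 61.5 CPM in chow, 74.1, 64.1 and 51.9 in STAM and 67.3, 69.5 and 55.1 with Atglistatin. C1qc was at 54.7, 25.3 and 35.6 CPM in chow, 37.2, 29.5 and 27.2 in STAM and 46.1, 34.0 and 33.3 with Atglistatin. C1qb was at 48.8 to 74.6 CPM. In all 3 genes chow replicate 7 was above and chow replicate 8 below the other chow libraries, and every pair of groups overlapped.

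Mpeg1, a pore-forming protein of phagocytes, was at 33.9, 27.6 and 34.6 CPM in chow, at 39.6, 47.6 and 41.6 in STAM and at 34.0, 28.5 and 35.7 in STAM + Atglistatin. Every STAM library thus lay above every chow and every treated library. The log2 fold change was 0.42 ± 0.16 in STAM against chow (edgeR adjusted p = 0.200, 0.119 to 0.512 over 15 alternatives) and -0.39 ± 0.16 in STAM + Atglistatin against STAM (edgeR adjusted p = 0.374, 0.269 to 0.757), and neither passed. Both share the STAM libraries, so they are not separate evidence. In the second comparison 8.45% of all tested genes had every treated library below every STAM library.

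Lyz2, the lysozyme of myeloid cells, was at 123, 65.8 and 95.7 CPM in chow, 70.6, 74.7 and 62.3 in STAM and 111, 77.2 and 73.3 with Atglistatin. Its log2 fold change in STAM against chow was -0.45 ± 0.20 (edgeR adjusted p = 0.292, 0.0740 to 0.623 over 15 alternatives) and became -0.22 without chow replicate 7. Lyz2 has a close copy in Lyz1, as Ly6c2 has in Ly6c1 and Fcgr3 in Fcgr2b, so the values of these 3 are uncertain where reads fit both copies. Cd68, a lysosomal protein of phagocytes, was at 23.2 CPM in chow replicate 7 and at 6.87 and 11.5 in the other chow libraries, with 6.73 to 12.5 in STAM and 9.62 to 16.5 with Atglistatin. The lysosomal protease gene Ctss (80.1 CPM against 38.2 and 54.7) and Laptm5 (39.0 against 20.6 and 25.9) showed the same chow order. Aif1 and Cybb, the latter a subunit of the phagocyte oxidase, had their lowest value in chow replicate 8.

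Fc receptors and their adaptors, which carry signals from antibody-coated particles, summed to 60.0 ± 5.70 CPM for chow, 61.8 ± 4.57 for STAM and 66.3 ± 10.2 for STAM + Atglistatin. Tyrobp, the adaptor through which Trem2 signals, was at 21.0 to 29.7 CPM in the 9 libraries. Fcgr3, a low-affinity antibody receptor, was at 7.2, 8.32 and 12.4 CPM in chow, 10.1, 9.80 and 5.65 in STAM and 14.1, 11.2 and 11.0 with Atglistatin. All 3 treated libraries lay above all 3 STAM libraries, which 8.58% of all tested genes did, and the log2 fold change of 0.51 ± 0.29 did not pass (edgeR adjusted p = 0.610, 0.515 to 0.867 over 15 alternatives). Fcer1g was at 14.6 to 27.3 CPM, and Fcgr1, the high-affinity receptor, at 3.11 to 8.85, with chow replicate 7 above the other chow libraries in both.

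Genes of recruited monocytes were few in counts. The 5 summed to 20.9 CPM in chow replicate 7 and to 7.35 and 6.35 in chow replicates 8 and 9. The STAM libraries held 16.8, 16.1 and 11.9 CPM and the treated libraries 19.7, 11.0 and 11.9, so that both groups lay between the chow libraries. Ccr2, the receptor that brings monocytes into tissue, was the exception, at 2.16, 2.41 and 2.22 CPM in chow, 4.53, 4.13 and 2.64 in STAM and 4.31, 2.80 and 2.59 with Atglistatin. Both groups lay above all chow libraries for Ccr2, on 15 to 43 counts a library, with edgeR adjusted p = 0.545 in STAM and 0.701 in STAM + Atglistatin. Across all members, 4 of 36 had every STAM library above every chow library (Cd5l, Mpeg1, Ccr2 and Spp1), near the 10.6% of all tested genes that did. In STAM + Atglistatin against chow 2 of 36 were wholly above (Ccr2 and Spp1, against 9.6% of all genes) and 0 wholly below (against 9.03%).

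Cx3cr1, the fractalkine receptor, was at 10.3, 3.37 and 1.03 CPM in chow, 6.86, 6.61 and 4.57 in STAM and 9.43, 3.83 and 6.92 with Atglistatin. The annotated span of Cx3cr1 holds parts of several other genes on both strands, so its counts are uncertain. Itgax, the integrin of macrophages and dendritic cells, had 25, 0 and 2 counts in the chow libraries, 13, 13 and 21 in STAM and 4, 31 and 12 with Atglistatin. Ly6c2 was at 4.22 CPM in chow replicate 7 and 4.11 in STAM + Atglistatin replicate 4, against 0.723 to 3.21 in the other 7 libraries. Itgam had 0 to 16 counts a library, too few to compare at this depth.

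The 5 genes of lipid-associated macrophages held the member with the largest fitted log2 difference from chow, Trem2. They summed to 67.6 CPM in chow replicate 7 and to 31.8 and 34.9 in replicates 8 and 9, with 44.5 to 65.7 in STAM and 46.2 to 52.7 in STAM + Atglistatin. Each STAM and treated library was above chow replicates 8 and 9, and all lay below chow replicate 7.

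Trem2, a lipid receptor of macrophages, lies on chromosome 17 of GRCm38 (48346401 to 48354147, plus strand), Gpnmb, a glycoprotein of lysosome-rich macrophages, on chromosome 6 (49036546 to 49070929, plus strand), and Lgals3, the lectin galectin-3, on chromosome 14 (47367751 to 47386160, plus strand). The 250 bases before the RefSeq start of each (GRCm38.p6, plus strand, 5′ to 3′) are shown because these are the 3 members whose call turned on a single library. Capitals mark the letters GAGGAA or their reverse complement TTCCTC, a sequence bound by the macrophage factor PU.1 (gene Spi1). Shorter or variant forms were not marked. The windows are chr17:48346151-48346400, chr6:49036268-49036517 and chr14:47373610-47373859.
Trem2: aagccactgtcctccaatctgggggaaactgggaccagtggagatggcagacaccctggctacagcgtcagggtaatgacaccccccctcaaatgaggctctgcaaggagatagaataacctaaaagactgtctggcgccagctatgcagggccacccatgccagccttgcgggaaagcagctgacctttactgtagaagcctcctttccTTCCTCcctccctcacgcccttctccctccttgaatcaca
Gpnmb: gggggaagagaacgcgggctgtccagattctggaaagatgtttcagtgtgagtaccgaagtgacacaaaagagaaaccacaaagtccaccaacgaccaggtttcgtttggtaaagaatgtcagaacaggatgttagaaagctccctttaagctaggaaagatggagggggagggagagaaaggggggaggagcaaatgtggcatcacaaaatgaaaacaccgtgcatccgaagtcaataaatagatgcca
Lgals3: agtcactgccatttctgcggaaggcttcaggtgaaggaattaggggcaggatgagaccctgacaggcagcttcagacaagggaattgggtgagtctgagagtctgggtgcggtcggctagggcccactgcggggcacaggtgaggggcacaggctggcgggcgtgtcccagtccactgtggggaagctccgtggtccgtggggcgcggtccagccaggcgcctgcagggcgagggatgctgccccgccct
Trem2 held 1 match, 40 bases before the start, and the Gpnmb and Lgals3 windows held none. RefSeq had such windows for 31 of the 36 members, 35 windows in all, of which 19 (54.3%) held GAGGAA on either strand, against 23.3% of all 32851 windows of this length. The letters TGACTCA or their reverse complement TGAGTCA were in 8.57% of the member windows and 4.46% of all, and CACGTG in 0 of 35 and 6.02% of all. These letters were chosen after their matches had been seen, and a match is a description of the sequence.

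Trem2 had 14, 0 and 0 counts in chow replicates 7, 8 and 9, a count of 0 that allows up to 0.362 and 0.443 CPM in the last pair. It was at 1.33, 2.01 and 2.28 CPM in STAM and at 3.01, 1.97 and 1.08 in STAM + Atglistatin, against 1.44 in chow replicate 7. It thus had no counts in 2 chow mice, and the third lay within the range of the 6 mice on the high-fat diet. With all libraries the log2 fold change was 1.83 ± 1.01 in STAM against chow (edgeR adjusted p = 0.436, 0.0143 to 0.718 over 15 alternatives) and 1.94 ± 1.01 in STAM + Atglistatin against chow (edgeR adjusted p = 0.385, 0.0121 to 0.666). With 3 counts over chow replicates 8 and 9 as the floor, pooled counts stood 9.33-fold above it in STAM and 10.3-fold in STAM + Atglistatin. Against chow replicates 8 and 9 alone both passed (edgeR adjusted p = 0.0143 and 0.0121). Chow replicate 7 itself, on 14 counts, was 7.24-fold above the same floor. The counting error of the counts set against the floor is not in these ratios, so they are no lower bounds.

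Gpnmb had 99, 0 and 1 counts in chow, 28, 113 and 27 in STAM and 9, 30 and 16 in STAM + Atglistatin. In CPM these were 10.2, 0 and 0.148, then 3.10, 13.3 and 3.24, then 0.903, 3.11 and 1.73. Chow replicate 7 and STAM replicate 2 stood above the rest, so the fold change followed single libraries. It was 0.88 ± 0.98 on the log2 scale in STAM against chow (edgeR adjusted p = 0.776, 0.00127 to 0.984 over 14 alternatives) and -0.15 without STAM replicate 2. In STAM + Atglistatin against chow it was -0.89 ± 1.03 (edgeR adjusted p = 0.777, 0.0288 to 0.911), and above 0 with limma-voom (2.54).

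Against chow replicates 8 and 9 alone, with their 1 count, Gpnmb was 98.0 times higher in STAM (95% exact interval 17.3 to 3893, counting error only) and 28.7 times higher in STAM + Atglistatin (4.94 to 1154). Both passed in that setting (edgeR adjusted p = 0.00127 and 0.0288). Chow replicate 7 itself was 154 times above them (26.9 to 6124). In STAM + Atglistatin against STAM the log2 fold change was -1.77 ± 1.02 (edgeR adjusted p = 0.615). It passed in 1 alternative, where the low-count filter was dropped (edgeR adjusted p = 0.0240, and 0.957 at most over 14), and the groups overlapped.

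Lgals3 was at 30.1, 6.39 and 10.6 CPM in chow, at 22, 20.9 and 18.1 in STAM and at 14.2, 15.7 and 9.62 in STAM + Atglistatin. The STAM libraries lay between chow replicate 7 and the other chow libraries, and all above the treated ones, as 8.45% of all tested genes did. In STAM against chow the log2 fold change was 0.36 ± 0.38 (edgeR adjusted p = 0.759, 0.00916 to 0.996 over 15 alternatives). It was 1.27 ± 0.29 without chow replicate 7 (edgeR adjusted p = 0.00916) and -0.015 without chow replicate 8.

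Spp1, which encodes osteopontin and is also made by bile duct cells, differed from these 3 genes in its chow order. It was at 12.9, 15.2 and 15.7 CPM in chow, 25.0, 19.2 and 16.6 in STAM and 19.4, 21.9 and 31.6 in STAM + Atglistatin. Every STAM and treated library lay above every chow library, and chow replicate 7 was the lowest of the 9. All treated libraries lay above all chow libraries in 9.60% of all tested genes. Its log2 fold change in STAM + Atglistatin against chow was 0.74 ± 0.23, with the smallest adjusted p of any member in the 3 comparisons (edgeR adjusted p = 0.0840). Of 15 alternatives it passed in 1, where the low-count filter was dropped (edgeR adjusted p = 0.0347, against 0.301 at most). The annotation places Gm42793 within its span on the same strand. Of 6 bile duct genes 0 passed in this comparison by edgeR, but the median log2 fold change of the 4 tested was 0.61. Krt19, a keratin of bile duct cells, was at 2.47, 0.964 and 1.92 CPM in chow and at 5.72, 3.21 and 3.03 with Atglistatin, without overlap, as Spp1 was, and Cldn7 had means of 0.172 and 1.49. The list as a whole did not separate the groups. Its 6 genes summed to 55.7, 27.7 and 29.1 CPM in chow and to 37.8, 34.4 and 29.3 with Atglistatin. That sum was highest in chow replicate 7, where Spp1 was lowest. The part of bile duct cells in the Spp1 values was not tested. Cd9, a tetraspanin that many cell types carry, was at 13.1, 10.2 and 8.42 CPM in chow, 7.96, 10.2 and 4.21 in STAM and 8.63, 10.1 and 7.14 with Atglistatin, with overlap throughout.

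**Figure D2:**
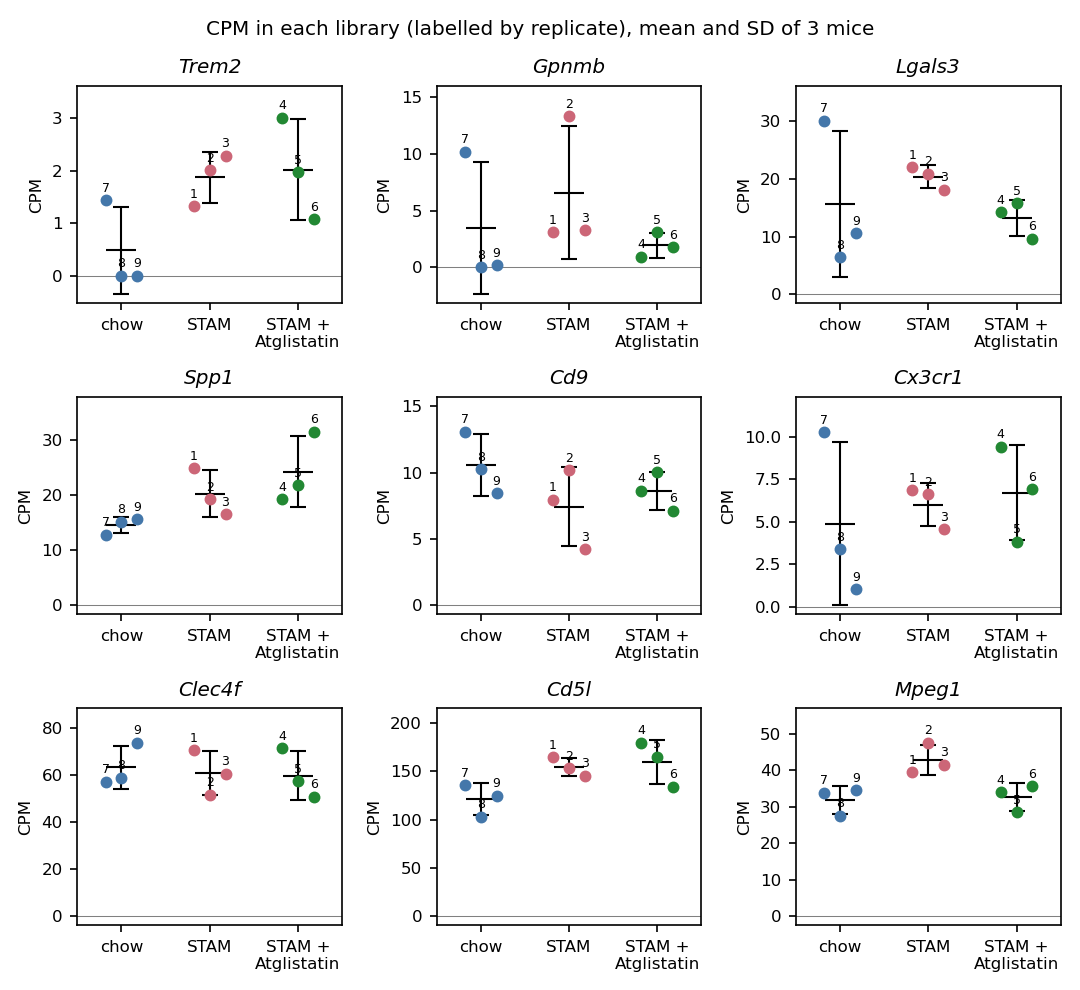
Each panel shows one gene's CPM on the y axis in the 3 groups, with a point per library labelled by its replicate number and a bar at the mean with the SD of n = 3. Chow replicate 7 is above the other chow libraries for Trem2, Gpnmb, Lgals3 and Cx3cr1 and below them for Spp1, and the points of Clec4f overlap between groups.

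The remaining pair take up modified lipoproteins and dying cells. Msr1, a scavenger receptor, was at 14.2 to 15.2 CPM in chow, 10.7 to 16.1 in STAM and 11.3 to 22.2 with Atglistatin. Axl, a receptor tyrosine kinase that recognises dying cells through Gas6, was at 14.7 to 22.3, 18.3 to 19.7 and 19.1 to 23.7 CPM.

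**Figure D3:**
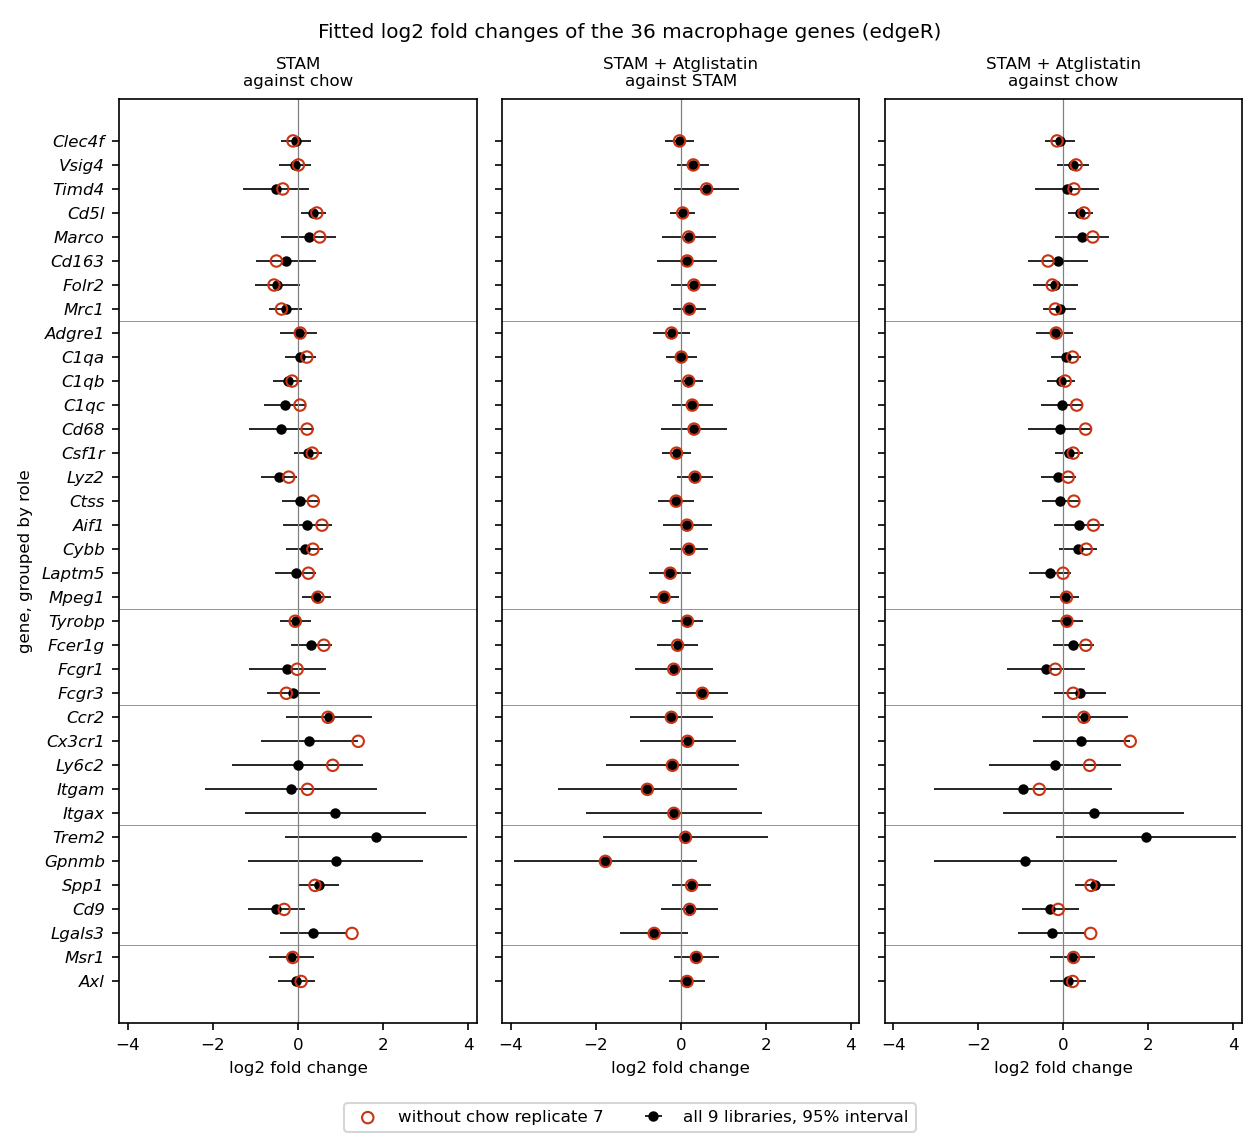
Points give the log2 fold change of each gene from edgeR with 95% intervals in the 3 comparisons, and open circles the value without chow replicate 7, left out for Itgax, Trem2 and Gpnmb in the comparisons with chow, where the other chow libraries held at most 3 counts. Intervals are wide for the monocyte and most lipid-associated genes, the filled points of Trem2 lie at 1.83 and 1.94 in the comparisons with chow and that of Gpnmb at -1.77 in STAM + Atglistatin against STAM, and the open circle of Lgals3 in STAM against chow is at 1.27.

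How far single libraries set these values was counted as the genes in which a library's CPM, with 0.5 added, was over 2-fold above both others of its group. Chow replicate 7 did so for 5 of 36 members (13.9%: Trem2, Gpnmb, Itgax, Lgals3 and Cx3cr1), and for 3.80% of all tested genes. It was the highest chow library in 26 members, where 36% of all genes had it highest. STAM + Atglistatin replicate 4 stood above its group in 3 members (Fcgr1, Ly6c2 and Itgam, 8.33% against 1.41% of all genes), replicate 5 in 1 (Itgax, against 1.44%) and STAM replicate 2 in 1 (Gpnmb, against 0.924%). Below both others by over 2-fold were Marco in chow replicate 8 (against 3.02% of all genes) and Cx3cr1 in chow replicate 9 (against 2.31%). The summed CPM of the 36 members was lowest in chow replicate 8, at 801 against 929 to 1189 in the other libraries.

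**Figure D4:**
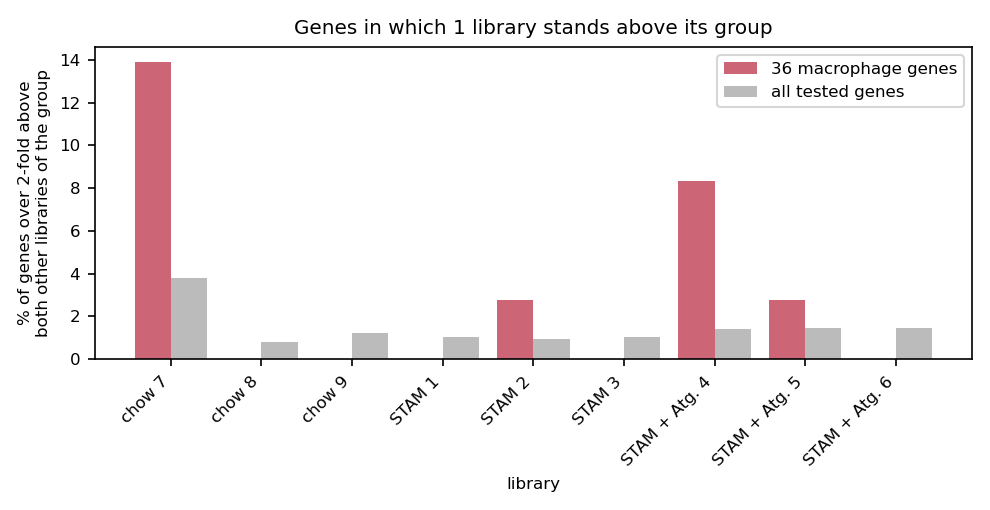
Bars give, for each library on the x axis, the percent of genes over 2-fold above both other libraries of its group, red for the 36 macrophage genes and grey for all 12660 tested genes. Chow replicate 7 has the tallest red bar at 13.9% beside a grey bar of 3.80%.

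Without chow replicate 7, 24 of 36 members lay above 0 in STAM against chow (52.6% of all genes) and 27 in STAM + Atglistatin against chow (51.4%). Members past an adjusted p of 0.05 were then 3 in STAM against chow, where 5.54% of 13078 genes passed and 2.68% passed as higher, and 2, Trem2 and Gpnmb, in STAM + Atglistatin against chow, where 5.79% passed and 2.88% as higher. At an unadjusted p under 0.05 they were 8 and 11, against 17.1% and 17.4% of all genes. In STAM + Atglistatin against STAM 0 passed by edgeR, with 2.54% of all genes called, and 3 members were at an unadjusted p under 0.05 (11.7% of all genes). The comparisons with chow then rest on 2 chow mice. The 8 resident Kupffer cell genes had a median of -0.24 in STAM against chow in this setting (-0.17 with all libraries) and 0 calls, and the 5 recruited monocyte genes a median of 0.81 (0.26 with all libraries) and 0 calls.

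Some lists outside the set also moved with chow replicate 7, and others did not. Of 8 proliferation genes, 6 were over 2-fold above both other chow libraries, against 3.8% of all tested genes. The 8 summed to 98 CPM against 24 and 37.5. Of 8 stellate cell genes 2 did so, Col1a1 and Acta2. The collagen gene Col1a1 was at 70.5 CPM against 13.7 and 23.3, and the 8 stellate cell genes summed to 700 against 525 and 516. Among the tested sinusoidal endothelial, hepatocyte, B, NK and dendritic cell genes 0 did so. The endothelial sum was 431 CPM in chow replicate 7 against 455 and 473, and the hepatocyte sum 90815 against 100321 and 102262. Neutrophil markers were few in counts, with Ly6g at 0 counts in all 9 libraries and a sum over 11 genes of 2.96 to 11.1 CPM. S100a9 had 38, 2 and 6 counts in chow, 33, 26 and 10 in STAM and 43, 27 and 42 with Atglistatin. It passed as higher in STAM + Atglistatin than in chow only without chow replicate 7 (edgeR adjusted p = 0.0367). The 8 T cell genes summed to 4.43, 2.77 and 2.07 CPM in chow, 8.74, 5.20 and 9.61 in STAM and 7.73, 5.18 and 8.54 with Atglistatin. The sums of both groups thus lay above chow, but the genes did not move alike. Cd3e and Cd8a had lower means in STAM than in chow, and the others higher means. Of the 3 that could be tested 0 passed with all libraries. Lck, a T cell kinase, had 11, 0 and 0 counts in chow, 29, 20 and 18 in STAM and 7, 4 and 6 with Atglistatin. It passed as higher in STAM without chow replicate 7 (edgeR adjusted p = 0.0100), as Trem2, Gpnmb and Lgals3 did. That call rests on chow libraries with 0 counts. The part of these in the macrophage values was not tested.

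Further genes of the same cells were taken from lists of related function. Of 9 tested Kupffer cell genes outside the set, 0 passed as higher and 2 as lower in STAM than in chow (1.95% and 1.99% of all genes). Slc40a1, the iron exporter ferroportin, which hepatocytes also express, fell from 120, 140 and 119 CPM to 88.1, 77.7 and 78.4 (log2 fold change -0.63 ± 0.12, edgeR adjusted p = 0.00490, 7.76e-05 to 0.0401 over 15 alternatives). Cd207, the lectin langerin, fell from 30, 13 and 9 counts to 1, 2 and 0 (ratio of chow to STAM 18.1, 95% exact interval 5.85 to 90.5, counting error only). Its edgeR adjusted p of 0.0412 ranged over 0.0193 to 0.193 in 15 alternatives, and the call was lost with limma-voom and whichever of the 9 libraries was left out. With Atglistatin, Cd207 had 22, 6 and 6 counts. C6, a complement factor that hepatocytes also make, fell with Atglistatin, from 218, 234 and 172 CPM in STAM to 66.6, 83.2 and 85.2 (-1.41 ± 0.15, edgeR adjusted p = 1.81e-05).

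Of 12 lipid-handling and lysosomal genes, 1 passed as higher and 1 as lower in STAM than in chow (1.95% and 1.99% of all genes). Without chow replicate 7 the higher ones were 3 (2.68% of all genes), with Lpl, lipoprotein lipase (log2 fold change 0.76, edgeR adjusted p = 0.0170), and Plin2, a lipid droplet coat protein (0.48, edgeR adjusted p = 0.0155), besides Cd63. Cd63, a tetraspanin of lysosomes, was at 21.6, 8.2 and 7.09 CPM in chow and rose to 30.7, 34.1 and 20.6 in STAM (1.19 ± 0.32, edgeR adjusted p = 0.0474). The call was lost in 9 of 15 alternatives (edgeR adjusted p up to 0.200), among them leaving out any library but chow replicate 7, where the value was 1.89, or STAM replicate 3. As with Lgals3, chow replicate 7 was over 2-fold above the other chow libraries. Fabp5, a fatty acid carrier of macrophages and other cells, fell from 38.3, 81.2 and 156 CPM to 7.85, 10.9 and 6.25 (-3.46 ± 0.44, edgeR adjusted p = 7.67e-05), and to 4.62, 15.3 and 8.76 with Atglistatin.

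Macrophage transcription factors (9 tested), growth factors, niche signals and attractants (11) and further myeloid surface and signalling genes (17) had 0 calls by edgeR in each of the 3 comparisons with all libraries. Spi1 was at 4.46 to 9.98 CPM in chow, 5.67 to 12.9 in STAM and 6.05 to 13.0 with Atglistatin. Csf1, the ligand of Csf1r, was at 14.5, 8.68 and 9.60 CPM in chow, 8.18, 5.55 and 6.49 in STAM and 5.52, 10.5 and 9.08 with Atglistatin, and the monocyte attractant Ccl2 had 2 to 48 counts a library. Chow replicate 7 was over 2-fold above both other chow libraries in 5 of the 17 myeloid genes, among them Clec7a, a receptor for fungal sugars (31.4 CPM against 6.99 and 6.80). Clec7a passed as higher in both comparisons with chow without that library (edgeR adjusted p = 0.0294 and 0.0120).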

How the data were processed

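The authors deposited 1 table of unnormalized counts per gene for the 9 libraries. Per the submitters' processing notes, reads were aligned with STAR to GRCm38. No source used here names the counting tool, annotation release or strand setting. The table also gives, as deposited, the authors' log2 fold changes and adjusted p-values, used here only for a count of members. Groups were taken from the sample titles, because the treatment field of 6 samples disagrees with their titles and with the design text. Nothing says more of the mice than that they are separate samples, so p-values measure the spread between these samples.

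Besides 55401 genes the table has 7 ribosomal RNA entries, which held 0.260 to 0.529% of counts and were left out. Tests used edgeR 4.0.16 under R 4.3.3, with filterByExpr on the groups, TMM scaling, 1 fit of group means to all 9 libraries, two-sided quasi-likelihood tests and Benjamini-Hochberg adjustment over all 12660 tested genes. SEs were taken from the fold change and the F statistic. Alternatives were DESeq2 size factors, library totals, no low-count filter, DESeq2 1.42.0, limma 3.58.1 (voom, weighting libraries by quality), fits restricted to the 2 groups of a comparison, an added minimum log2 fold change of 1, and omission of each library in turn. Members described with full statistics were the 3 with the smallest p in each comparison, with Gpnmb, Lgals3 and Trem2 added for their change without chow replicate 7. Genes outside the set that are named without a call in all 9 libraries (Spi1, Csf1, Ccl2, Clec7a, Col1a1, Ly6g, S100a9, Krt19, Cldn7, Lck, Lpl, Plin2) were chosen after their values were seen. The members and lists were chosen with earlier results of these data known. Positions are from GENCODE M21, in which 9 members overlap another annotated gene. Intervals cover counting error only, and floors (3 counts) cover only that of a count of 0. Besides those given in the report, lists of B, NK, dendritic, sinusoidal endothelial and erythroid cells had 1, 0, 0, 1 and 0 genes called in STAM against chow.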

Additional observations from a re-analysis of the deposited data

How the results depend on the processing

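No paired analysis was possible because the groups share no replicate numbers. Members called ranged from 0 to 3 over the libraries left out in STAM against chow, from 0 to 0 in STAM + Atglistatin against STAM and from 0 to 2 in STAM + Atglistatin against chow. The only library that moved a count was chow replicate 7. With no low-count filter 1 member was called in STAM + Atglistatin against STAM (Gpnmb) and 1 in STAM + Atglistatin against chow (Spp1). The other alternatives gave 0 in all 3 comparisons. Log2 fold changes turned sign over the libraries left out for Gpnmb in STAM against chow (-0.15 without STAM replicate 2 to 6.34 without chow replicate 7), for Lgals3 in STAM against chow (-0.015 without chow replicate 8 to 1.27 without chow replicate 7) and for Gpnmb in STAM + Atglistatin against chow (-1.47 without chow replicate 8 to 4.56 without chow replicate 7, and 2.54 with limma-voom). The fitted Gpnmb values without chow replicate 7 rest on 1 count in the other chow libraries and are no bounds. Members standing above both other libraries of their group were, at 1.5-fold, 10 in chow replicate 7, 2 in STAM replicate 2 and 2 in STAM + Atglistatin replicate 5. At 3-fold they were 3, 1 and 0, and 0 in STAM + Atglistatin replicate 4. Shares over all tested genes at 1.5-fold and 3-fold are not given, so these counts show only how the threshold moves them. With 3 mice a group, the 8 members of lowest mean CPM had intervals reaching past a 2-fold change in every comparison, and no member's lack of a call shows that it did not differ. The cause of the difference of chow replicate 7 was not tested.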
